A study of Mus musculus with 20 samples.

Results

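Transcript levels of the cytochrome P450 genes in mouse kidney were compared between puberulic acid and phosphate-buffered saline (PBS). Members were all genes whose symbol is Cyp followed by a digit, less 30 pseudogenes and 2 genes that the rule sets aside. This left 99 genes in 38 subfamilies, out of 55822 genes in the table. One of the 99, Cyp4x1os, is an antisense gene that meets the rule by its symbol alone. Poly(A) RNA of kidney tissue was sequenced from male C57BL/6J mice aged 8 weeks, with 5 samples per group. Controls received PBS, and treated mice received 1 mg per day of puberulic acid, a tropolone that certain Penicillium moulds produce. Each animal had 6 daily doses, no dose on the following day, and was killed on day 7. Dosing was oral by the design text, whereas the protocol allows gavage or injection into the peritoneum. Mice given 1000 mg per day of Choleste-Help, from a lot labelled normal or one labelled toxic, were also part of the study and are not analysed here. The labels do not say that each sample was a separate mouse, so p-values measure the spread between these samples.

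P450 enzymes are heme proteins that insert an atom of oxygen into fatty acids, sterols, steroid hormones, retinoids, drugs and other small molecules. Most sit in the endoplasmic reticulum and take electrons from cytochrome P450 reductase (Por), some with help from cytochrome b5. A few sit in mitochondria and take them from ferredoxin (Fdx1). In the kidney the proximal tubule is the main site of most P450 enzymes. The best known of them there turn arachidonic acid into lipid mediators that act on salt transport and on vessels.

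Levels are given as CPM, the estimated counts of a gene relative to the scaled size of its library. Scaling used trimmed mean of M-values (TMM) factors. Library totals ran from 18409877 to 24705587 estimated counts, and 3 counts, taken as the floor, correspond to 0.0964 to 0.195 CPM depending on the library. This floor covers counting error only. Proximal tubule markers fell in the treated kidneys, 12 of 12 by edgeR's test, and their summed level was 41500 to 54000 CPM in controls and 6170 to 8450 CPM with puberulic acid. In whole tissue, fewer cells of a type and less RNA per cell cannot be told apart, and the part of this fall in the members' results was not tested. The 2 injury markers Havcr1 and Lcn2 both rose, together from 3.93 to 5.65 CPM in controls to 1200.0 to 2180 CPM. Of 8 markers of the later nephron (loop to collecting duct), 6 fell, and of 5 endothelium markers 1 fell. Of 6 fibroblast and mural markers, 5 rose and none fell. By the same test, 34.2% of all genes tested rose and 31.1% fell.

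A pair of treated libraries stood apart from the other 3. Puberulic acid replicate 1 lay on the control side for many members: it was the highest treated library for 18 of the 26 members that fell. Its proximal tubule markers summed to 8450 CPM against at most 6550 in the other treated libraries. Puberulic acid replicate 3 had high levels of markers of tissues that adjoin the kidney. Its 8 adrenal cortex markers summed to 59.1 CPM against at most 7.18 in any other library. This list holds 2 members, Cyp11b1 and Cyp21a1, and its other 6 genes summed to 49.1 CPM against at most 7.18. In the same library the 4 adipocyte markers summed to 168 CPM against at most 2.95, and the 5 urothelium markers to 56.6 CPM against at most 23.9. Where leaving out either library changes a member's call or moves its fold by over 1.5 times, the value without it is given.

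Of the 99 members, 42 had enough counts to be tested, a filter that a gene can pass through one group alone. The other 57 were not tested: 16 had no counts in any library, 34 (these included) never exceeded 3 counts, and 23 exceeded 3 counts in at least 1 library. Across all 16266 genes tested, 65.3% were called at an adjusted p under 0.05, 34.2% higher and 31.1% lower with puberulic acid, by the quasi-likelihood test of edgeR (Benjamini-Hochberg adjusted). Among the tested members 35 were called (83.3%), 26 lower (61.9%) and 9 higher (21.4%). The median log2 fold change of the tested members was -1.1, against 0.05 over all genes tested. The 26 that fell included 21 that fell at least 2-fold and 13 that fell at least 4-fold. Group ranges did not overlap for 27 of the tested members (64.3%), 20 lower and 7 higher, against 50.1% of all genes tested. Without replicate 1 of puberulic acid 28 members were lower and 9 higher, and without replicate 3 the counts were 24 and 9. With libraries scaled to total counts, 19 members were lower and 13 higher. That scaling moved the median log2 fold change of all genes from 0.05 to 0.56, and the share of all calls that were higher from 52.4% to 78.4%.

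**Figure D1:**
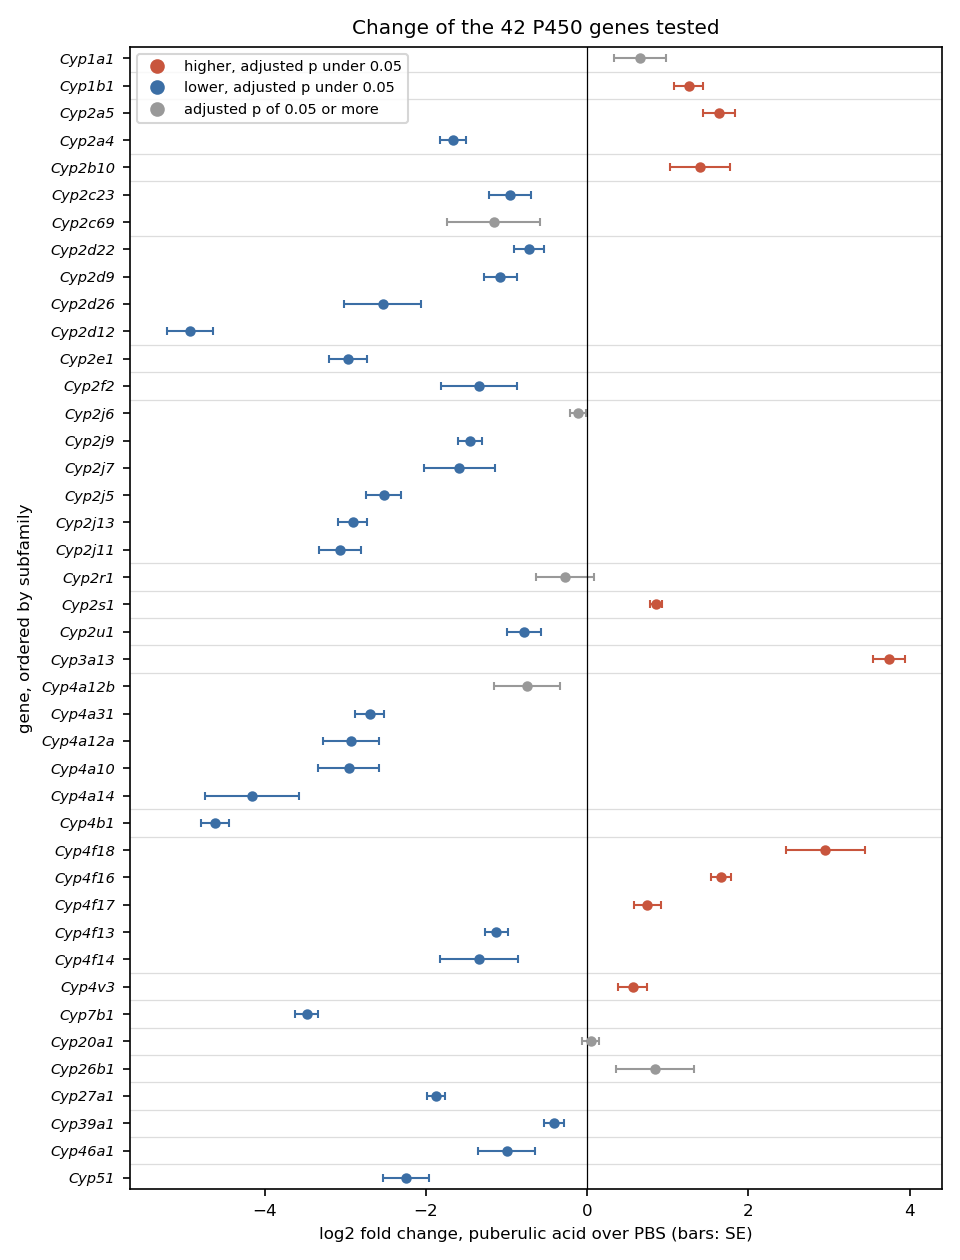
Fitted log2 fold change (horizontal axis, puberulic acid over PBS) of the 42 tested P450 genes, ordered by subfamily on the vertical axis. Points are estimates and bars are standard errors over 5 and 5 samples. Blue marks the 26 genes that fell, red the 9 that rose and grey the 7 that were not called.

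The fall was also large as a share of all transcripts. Members together held 0.783% to 0.925% of the counts in controls and 0.191% to 0.3% with puberulic acid. Their summed level was 9816, 11080, 10560, 9935 and 9357 CPM in control replicates 1 to 5. In puberulic acid replicates 1 to 5 it was 2554, 1617, 1650.0, 1680.0 and 1728 CPM. The ranges did not overlap, and the control mean was 5.50-fold the treated mean, or 6.18-fold without puberulic acid replicate 1. Cyp4b1 alone made up 30.2% to 37.7% of the members' counts in controls and 7.12% to 8.55% with puberulic acid. Without Cyp4b1 the other 98 members fell in sum by a factor of 3.87.

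The order of the members by level per kilobase of exon changed. In controls Cyp4b1 was highest at 1583 CPM per kb, followed by Cyp2e1 at 834, Cyp2j5 at 631, Cyp4a10 at 226 and Cyp2a4 at 213. In treated kidneys Cyp2a5 was highest at 193 CPM per kb, followed by Cyp2j5 at 109.9, Cyp2e1 at 107, Cyp2a4 at 67.2 and Cyp4b1 at 64.8. The control ranges of Cyp4b1, Cyp2e1 and Cyp2j5 did not overlap with the next in order, while that of Cyp4a10 overlapped with that of Cyp2a4. In the treated group each of the 5 overlapped with the next. The places of Cyp2a4 and Cyp2a5 depend on how reads of their shared sequence were split, as described below.

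Of 10 tested enzymes of fatty acids and arachidonic acid listed by role, 8 fell, 1 rose and 1 was not called. Cyp4b1, which hydroxylates medium-chain fatty acids and activates some plant toxins, was measured at 3425, 3966, 3984, 3655 and 2822 CPM in control replicates 1 to 5 and at 200, 125, 139, 119.7 and 148 CPM in puberulic acid replicates 1 to 5. Every treated sample was far below every control. Its log2 fold change was -4.61 ± 0.18 (SE; n = 5 and 5; edgeR adjusted p = 3.997e-09), a 24.4-fold fall.

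Cyp2j5, an epoxygenase of arachidonic acid abundant in the proximal tubule, was at 1631, 1584, 1461, 1421 and 1301 CPM in controls and at 437, 196, 197, 216 and 241 CPM in treated kidneys. The groups were apart, with treated replicate 1 the highest of its group (log2 fold change -2.52 ± 0.22; edgeR adjusted p = 1.214e-06). Its relatives Cyp2j11 (-3.06 ± 0.26) and Cyp2j13 (-2.91 ± 0.18) also fell, and these differences from Cyp2j5 were not tested. Cyp2j9 fell by 1.45 and Cyp2j7 by 1.58, the latter from at most 1.06 CPM. The sixth tested member of the subfamily, Cyp2j6, was not called: its level was 47.8 ± 2.88 CPM (SD, n = 5) in controls and 44.3 ± 6.55 CPM with puberulic acid, and the ranges overlapped. Without treated replicate 1 the log2 fold change of Cyp2j6 was -0.23 with an edgeR adjusted p of 0.0138. With total-count scaling it was called in the opposite direction (0.40; adjusted p = 0.00329).

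**Figure D2:**
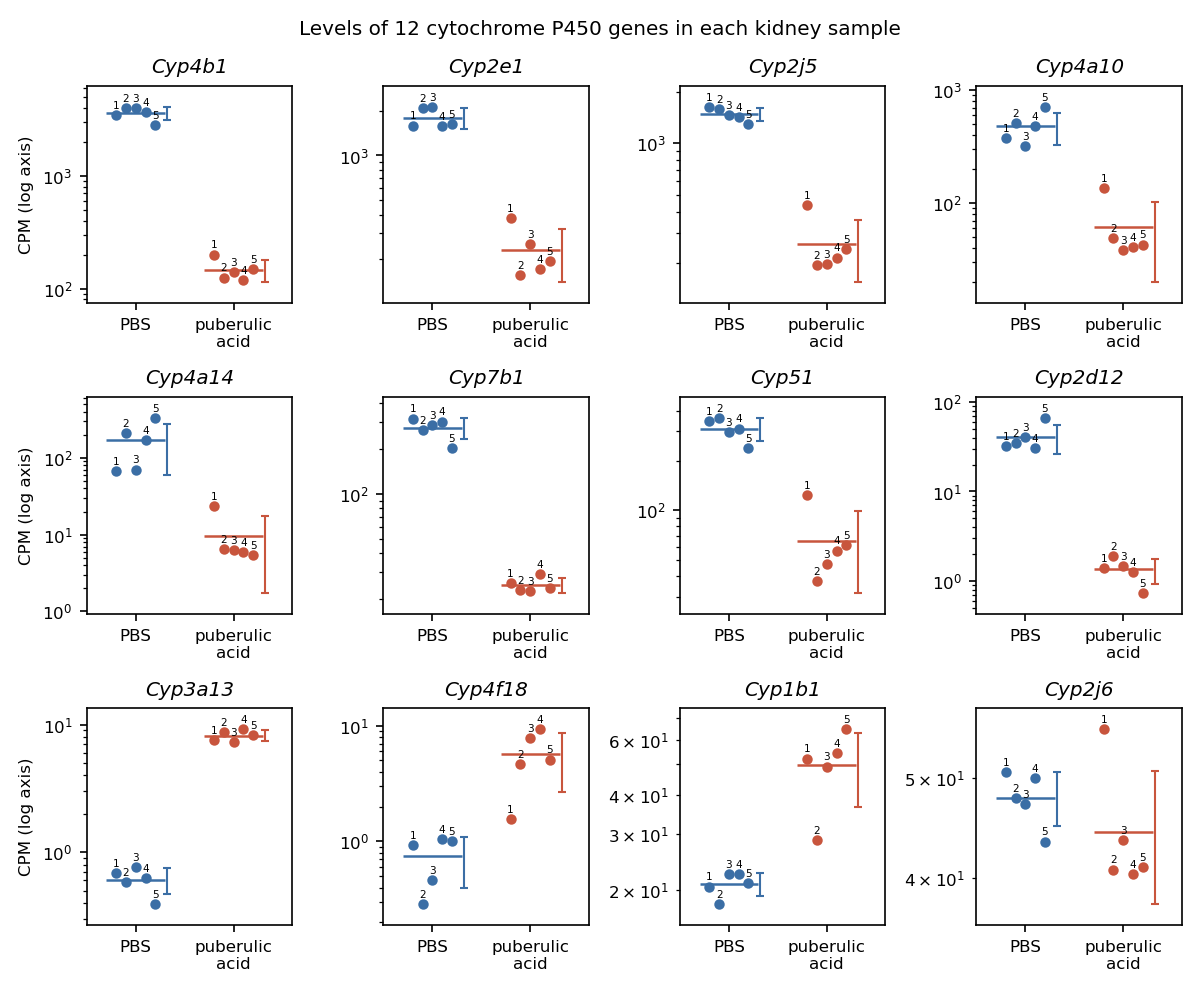
CPM (vertical axis, log scale, a different range in each panel) of 12 P450 genes in each kidney sample, with PBS in blue and puberulic acid in red. Numbers are replicate numbers, horizontal lines are means and bars are 1 SD (n = 5). The 8 genes from Cyp4b1 to Cyp2d12 lie lower in every treated sample, Cyp3a13, Cyp4f18 and Cyp1b1 lie higher in every one, and the groups of Cyp2j6 overlap.

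The Cyp4a genes, omega-hydroxylases of fatty acids and arachidonic acid that respond to the receptor Ppara, number 8, of which 4 fell, 1 was not called and 3 were not tested. Cyp4a10 was at 377, 508, 318, 476 and 708 CPM in controls and at 135, 49.1, 38.7, 41.2 and 43.1 CPM in treated samples. All treated values were under all controls (log2 fold change -2.96 ± 0.38; edgeR adjusted p = 2.669e-05). Cyp4a14 varied more among controls, at 67.4, 212, 70.7, 171 and 331 CPM, and was at 23.5, 6.43, 6.37, 5.96 and 5.46 CPM with puberulic acid. Treated replicate 1 was well above the other 4 treated samples and still below every control (-4.16 ± 0.58; adjusted p = 5.497e-05). Without that replicate the log2 fold change was -4.84. Cyp4a31 fell by 2.70 on the log2 scale from a control mean of 353 CPM.

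Cyp4a12a was called and Cyp4a12b was not, and the difference between them was not tested. Cyp4a12a, the chief arachidonic acid omega-hydroxylase of male mouse kidney, fell from 70.3 ± 18.6 CPM (SD, n = 5) to 9.23 ± 4.75 CPM, a log2 fold change of -2.93 ± 0.34 (edgeR adjusted p = 1.376e-05). Cyp4a12b was at 13.5, 26.5, 14.4, 22.0 and 45.1 CPM in controls and at 30.8, 10.1, 8.43, 11.1 and 12 CPM in treated samples, and was not called (-0.75 ± 0.40; adjusted p = 0.124). Its ranges overlapped because treated replicate 1 was above 4 of the 5 controls. Without treated replicate 1 it was lower with a log2 fold change of -1.25 (adjusted p = 0.0049). The 2 genes share 62.2% and 62.9% of their 31-base words, so the split of reads between them is uncertain. Their summed level was 75.9 to 124 CPM in controls and 11.9 to 46.9 CPM with puberulic acid, with no overlap. Within the pair, Cyp4a12b took 14.8% to 45.6% of the summed level in controls and 48.9% to 71.0% in treated samples. Cyp4a10 shared 44.9% of its words with other genes, most with Cyp4a32, which was at most 0.773 CPM in any sample.

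Of the remaining fatty acid members, Cyp2c23, the mouse counterpart of a renal epoxygenase of the rat, fell from 24.9 ± 4.42 to 12.8 ± 5.92 CPM (-0.96 ± 0.26; edgeR adjusted p = 0.00577), and treated replicate 1, at 23.0 CPM, lay among the controls. Cyp2u1, a hydroxylase of long-chain fatty acids, fell by 0.78 on the log2 scale. Neither call was made with total-count scaling (adjusted p = 0.129 and 0.286). Cyp2c69, the other tested gene of the 2C subfamily, was at most 1.71 CPM and was not called. Without control replicate 1 it was called lower (-1.46; adjusted p = 0.0153). In all, 13 of the 15 genes of that subfamily were not tested.

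The Cyp4f subfamily split in direction. Cyp4f13 (log2 fold change -1.12 ± 0.14) and the low Cyp4f14 (-1.34 ± 0.48, from 1.31 CPM) fell, while Cyp4f16 (1.66 ± 0.12), Cyp4f17 (0.75 ± 0.17) and Cyp4f18 (2.95 ± 0.49) rose. Cyp4f14 was not called without treated replicate 3 (-1.22; adjusted p = 0.0602), nor without treated replicate 4 or control replicate 3, 4 or 5 (-1.30 to -1.20). It was also not called with the replicate number as a block (-1.29; adjusted p = 0.0945) or with total-count scaling (-0.83; adjusted p = 0.143). Cyp4f18, an omega-hydroxylase of leukotrienes known from neutrophils, was at 0.936, 0.288, 0.462, 1.04 and 1.00 CPM in controls and at 1.56, 4.62, 7.75, 9.34 and 5.09 CPM in treated samples. The treated samples were all higher, and replicate 1 was closest to the controls (edgeR adjusted p = 0.000228). Of 6 immune cell markers tested, 3 rose (Ptprc, Cd68 and Itgam) and 3 were not called. S100a8, also listed, was not tested, at means of 0.146 CPM in controls and 0.346 CPM in treated samples. The 7 markers summed to 59.0 to 106 CPM in controls and 106 to 238 CPM with puberulic acid. Their part in the result of Cyp4f18 was not tested. The summed level of the subfamily was 47.4 to 56.8 CPM in controls and 54.4 to 64.0 CPM with puberulic acid, and members of opposite direction were added up in it. Cyp4v3, another fatty acid omega-hydroxylase, rose by 0.57 ± 0.18 with overlapping ranges.

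Of 10 tested enzymes of drugs and other small molecules listed by role, 5 fell, 4 rose and 1 was not called. Cyp2e1, the highest of them in controls, oxidises ethanol, acetone and paracetamol. Its level was 1589, 2099, 2121, 1575 and 1619 CPM in controls and 378, 156, 252, 172 and 194 CPM in treated samples. No treated sample came near the controls (log2 fold change -2.96 ± 0.24; edgeR adjusted p = 7.243e-07). All 4 tested Cyp2d genes fell, a subfamily that acts on amine drugs. Cyp2d12 had the largest fitted fall of all members, from 30.4 to 66.1 CPM in controls to 0.734 to 1.91 CPM (-4.93 ± 0.29). Cyp2d26 fell by 2.54 ± 0.47, with control replicate 5 at 287 CPM and treated replicate 1 at 71.1 CPM, each the highest of its group. Without treated replicate 1 its log2 fold change was -3.28. Cyp2d9 (-1.08) and Cyp2d22 (-0.72) fell less. Cyp2d9 shares 34.8% of its words with other genes, of which Cyp2d12 shares the largest part (14.1%). The call of Cyp2d22 was not made with total-count scaling. Cyp2f2, known from airway club cells, was near 1 CPM, and fell by 1.34. It was not called without control replicate 2 or 3 or treated replicate 2 or 5, with log2 fold changes of -1.28 to -1.23, or with total-count scaling (-0.84; adjusted p = 0.129). Of the 4 untested Cyp2d genes, Cyp2d34 had at most 1 count in controls and 6 to 13 counts in treated samples.

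Cyp2a4 and Cyp2a5 moved in opposite directions and are nearly the same gene. Cyp2a4 hydroxylates testosterone, and Cyp2a5 hydroxylates coumarin and nicotine. Their coding sequences are both 1482 bases long in the GENCODE M21 annotation of GRCm38 and differ at 23 of them, an identity of 98.4%. The stretch with the most differences, coding bases 596 to 655 counted from the start codon, is printed to show how little separates the 2 transcripts, with the 4 differing bases in capitals.
Cyp2a4: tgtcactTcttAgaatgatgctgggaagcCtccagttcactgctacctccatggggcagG
Cyp2a5: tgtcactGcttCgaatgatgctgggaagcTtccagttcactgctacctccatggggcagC

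Of the 31-base words of their transcripts, 55.9% of those of Cyp2a4 occur in Cyp2a5 and 44.9% of those of Cyp2a5 in Cyp2a4. Reads from such words cannot be placed on one gene by sequence alone. Cyp2a4 was at 369, 351, 359.5, 422 and 346 CPM in controls and at 169, 107, 86.3, 101 and 120.5 CPM in treated samples. It fell in every treated sample relative to every control (log2 fold change -1.66 ± 0.16; edgeR adjusted p = 2.914e-06). Cyp2a5 was at 185, 95.9, 155, 84.1 and 125 CPM in controls and at 338, 452, 388, 435 and 392 CPM in treated samples. It rose in every treated sample (1.64 ± 0.20; adjusted p = 1.794e-05).

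The sums of the pair overlapped between the groups, at 447 to 554 CPM in controls and 474 to 559 CPM with puberulic acid. Within the pair, Cyp2a5 took 33.4%, 21.5%, 30.1%, 16.6% and 26.5% of the summed level in control replicates 1 to 5. It took 66.7%, 80.8%, 81.8%, 81.2% and 76.5% in the treated replicates. The shares did not overlap, while the sum lay within the control range in 4 of 5 treated samples.

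**Figure D3:**
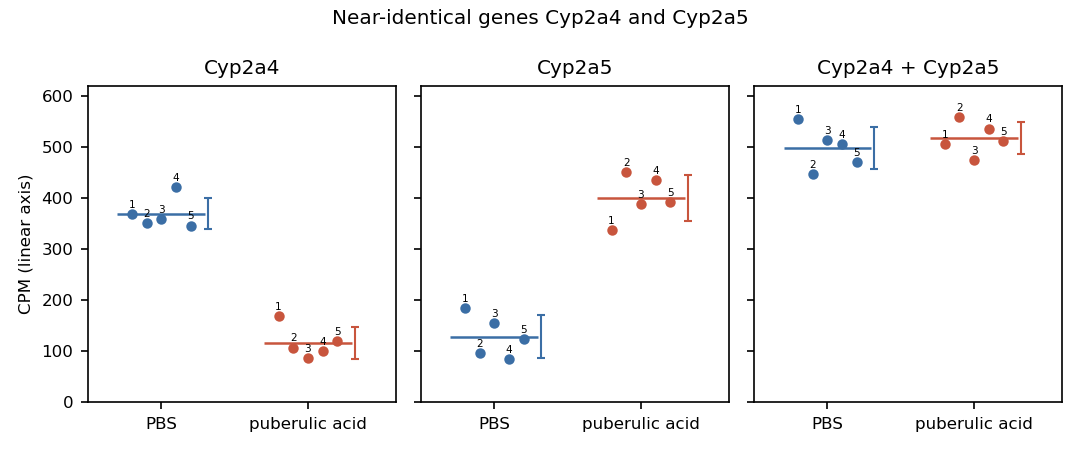
CPM (vertical axis, linear) of Cyp2a4, Cyp2a5 and their sum in the 5 PBS (blue) and 5 puberulic acid (red) samples, with replicate numbers, means as lines and 1 SD as bars. Cyp2a4 is lower and Cyp2a5 higher in all treated samples, and the sums overlap, at 447 to 554 CPM in controls and 474 to 559 CPM with puberulic acid.

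The promoters of the 2 genes are as alike as their coding sequences. The RefSeq windows of 300 bases, from 250 before to 50 after the start in GRCm38.p6, differ at 5 substitutions and 2 bases at their ends. The 140 bases around the start hold 3 of the 5, in capitals, and are shown because the genes they precede changed in opposite directions. Cyp2a4 is at chr7:26307062-26307201 and Cyp2a5 at chr7:26835208-26835347, both on the plus strand.
Cyp2a4: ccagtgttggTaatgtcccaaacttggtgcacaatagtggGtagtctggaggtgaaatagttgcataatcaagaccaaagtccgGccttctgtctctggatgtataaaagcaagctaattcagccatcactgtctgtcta
Cyp2a5: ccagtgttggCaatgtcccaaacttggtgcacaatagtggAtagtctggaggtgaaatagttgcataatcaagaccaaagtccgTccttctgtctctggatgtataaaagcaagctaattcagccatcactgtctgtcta

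Cyp3a13, one of the 3A enzymes that oxidise many drugs and steroids, had the largest fold rise of the tested members. It was at 0.687, 0.582, 0.762, 0.626 and 0.392 CPM in controls and at 7.61, 8.72, 7.25, 9.25 and 8.28 CPM in treated samples. The treated values were close together and far above the highest control (log2 fold change 3.74 ± 0.20; edgeR adjusted p = 3.512e-08), and treated replicate 1 was not apart here. The other 8 genes of the 3A subfamily were not tested. Cyp3a11 reached 4 counts in a library, and the other 7 never exceeded 3.

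The promoter of Cyp3a13 is printed because it holds 2 matches to the AP-1 motif TGACTCA, read on either strand and set in capitals, which begin 91 and 6 bases before the start. The stretch is chr5:137921610-137921729 of GRCm38.p6 on the minus strand, from 110 bases before to 10 after the RefSeq start.
Cyp3a13: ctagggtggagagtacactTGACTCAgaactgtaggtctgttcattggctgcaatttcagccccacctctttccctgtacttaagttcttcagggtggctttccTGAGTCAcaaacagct

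Of all 32851 promoter windows of 300 bases in the RefSeq table, 5.2% hold this motif at least once and 0.222% at least 2 times. Promoters were found for 77 members (87 windows), among them 29 tested ones, of which 8 rose and 15 fell. AP-1 was 1 of 7 motifs searched on both strands, and of the tested members it matched Cyp3a13 and Cyp4f16, both of which rose. It was in 5.75% of member windows, near its share of all windows. The core of the xenobiotic response element bound by the receptor Ahr, GCGTG, matched 12 tested members (4 that rose, 5 that fell). This core was in 20.7% of member windows and 32.4% of all windows. TATAAA matched 9 tested members (1 rose, 5 fell), with 39.1% of member windows and 13.6% of all windows. The C/EBP motif TTGCNNAA matched 7 (2 rose, 3 fell), with 24.1% of member windows and 10.8% of all. The sterol response element matched Cyp2a4 and Cyp2a5 (2.3% of member windows, 0.234% of all). The direct repeat bound by HNF4 and PPAR matched 3 members (3.45% of member windows, 0.094% of all), of which Cyp2d9 alone was tested. The tested Cyp4a genes had no window, so their promoters were not searched for any motif. A match describes letters in these windows and shows no binding, and differences between these shares were not tested.

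The other members that rose were of moderate or low level. Cyp1b1, an enzyme of polycyclic hydrocarbons and estrogens that Ahr induces, was at 20.5, 18, 22.5, 22.4 and 21 CPM in controls and at 52.2, 28.8, 49.2, 54.5 and 64.8 CPM in treated samples. The treated samples were all higher, with replicate 2 nearest to the controls (log2 fold change 1.26 ± 0.18; edgeR adjusted p = 5.963e-05). Cyp1a1, the classical Ahr target, was at 1.02 ± 0.47 CPM (SD, n = 5) in controls and 1.6 ± 0.33 CPM with puberulic acid and was not called (0.66 ± 0.32; adjusted p = 0.0877). It was called higher without control replicate 5 (0.90; adjusted p = 0.0246) and with total-count scaling (1.16; adjusted p = 0.0059). Cyp1a2 never exceeded 3 counts. Cyp2s1, found outside the liver, rose from 22.4 ± 1.42 to 40.3 ± 1.45 CPM. Cyp2b10, a target of the receptor Nr1i3, was at 0.20 to 0.37 CPM in controls, near the floor, and at 0.43 to 1.45 CPM in treated samples (1.40 ± 0.37). With a minimum of 1 CPM in 5 samples it was not tested, nor were Cyp2c69, Cyp2f2, Cyp2j7, Cyp2r1 and Cyp4f14.

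Of 7 sterol and bile acid enzymes listed by role, 5 were tested and all 5 fell. Cyp7b1, which hydroxylates oxysterols, was at 317, 265, 287, 302 and 203 CPM in controls and at 25.4, 22.8, 22.3, 29.3 and 23.4 CPM in treated samples. This was an 11.2-fold fall, far outside the spread of either group (log2 fold change -3.48 ± 0.14; edgeR adjusted p = 4.749e-09). Treated replicate 1 was inside the range of its group here. Cyp51, the lanosterol demethylase of cholesterol synthesis, was at 347, 362, 296, 312 and 238 CPM in controls and at 124, 37.5, 47.4, 57.2 and 62.0 CPM in treated samples, with replicate 1 the highest (-2.25 ± 0.28; adjusted p = 2.428e-05). Cyp27a1, the mitochondrial sterol side-chain hydroxylase, fell from 37.0 ± 3.71 to 10.1 ± 1.38 CPM (-1.87 ± 0.11). Cyp39a1, an oxysterol hydroxylase, had a small fall of 0.41 ± 0.13, which had the opposite sign with total-count scaling (0.09; adjusted p = 0.512). Cyp46a1, the cholesterol hydroxylase of neurons, was at most 1.71 CPM in any sample, and fell by 1.00 ± 0.35. It was not called without treated replicate 3 (-0.84; adjusted p = 0.055), treated replicate 4 (-0.95; adjusted p = 0.0517) or control replicate 2 (-0.96; adjusted p = 0.0505), or with total-count scaling (-0.49; adjusted p = 0.226). Cyp7a1 and Cyp8b1, bile acid enzymes of the liver, had at most 1 and 4 counts in a library.

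The adrenal steroid genes Cyp11a1, Cyp11b1 and Cyp21a1 each exceeded 7 counts in 1 library, treated replicate 3. Cyp11a1, which cleaves the cholesterol side chain, had 99 counts in treated replicate 3 and at most 4 in every other library. Cyp11b1 had 113 counts there and at most 2 elsewhere, and Cyp21a1 had 121 and at most 7. Cyp21a1 had no counts in the 5 controls and 1, 4, 2 and 7 in the other treated replicates. In CPM the 3 genes stood at 4.20, 4.79 and 5.15 in that library. None of the 3 passed the filter, so none was tested. The same library had the adrenal genes Star at 30.1 CPM and Hsd3b1 at 10.2 CPM and the fat genes Cfd at 130 CPM and Adipoq at 20.3 CPM. Without that library the highest levels of the 3 P450 genes were 0.174, 0.125 and 0.223 CPM, at or near the floor. Cyp17a1, also of steroid synthesis, had at most 9 counts in a library and 0 in treated replicate 3, and Cyp19a1, the aromatase, had none in any. Cyp4f15 resembled them among the treated samples, with 24 counts in replicate 3 and at most 1 in the other 4, but it had 5 to 11 counts in the controls.

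**Figure D4:**
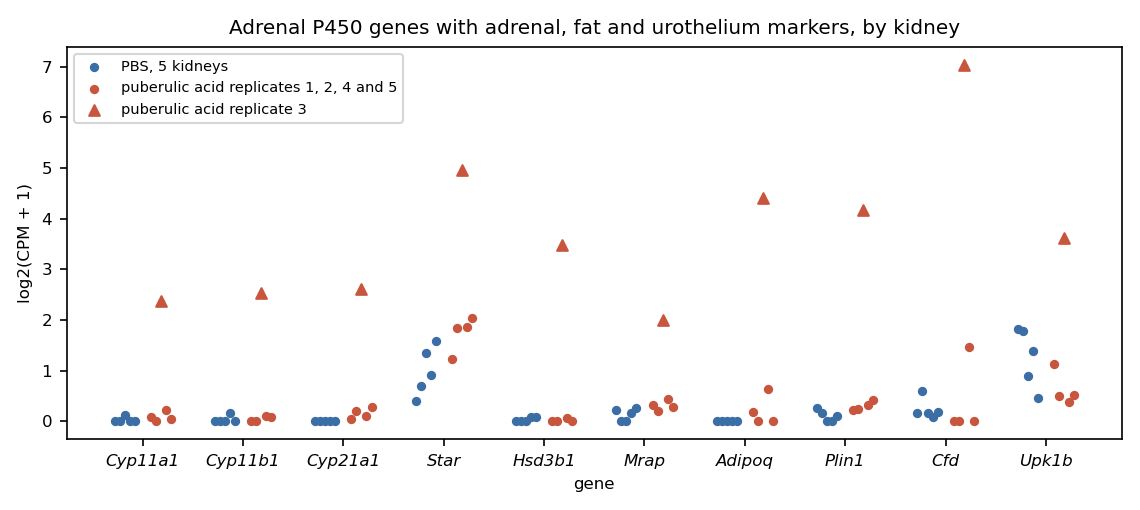
Level (vertical axis, log2(CPM + 1)) of 3 adrenal P450 genes and 7 marker genes of adrenal cortex, fat and urothelium in each sample. Blue points are the 5 PBS samples, red points are puberulic acid replicates 1, 2, 4 and 5, and the red triangle is puberulic acid replicate 3. The triangle is the highest point for each of the 10 genes.

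Of the enzymes that break down retinoic acid, Cyp26b1 alone was tested. It was at 2.21, 2.16, 2.35, 1.96 and 6.29 CPM in controls and at 12.7, 2.49, 3.42, 4.25 and 3.91 CPM in treated samples. Control replicate 5 and treated replicate 1 were each far above the rest of their group, and the gene was not called (log2 fold change 0.84 ± 0.48; edgeR adjusted p = 0.141). Without control replicate 5 it was called higher (1.29; adjusted p = 0.0274), as it was with total-count scaling (1.34; adjusted p = 0.0234). Without treated replicate 1 its log2 fold change was 0.21 (adjusted p = 0.62). Cyp26a1 was at most 0.616 CPM and Cyp26c1 never exceeded 3 counts. Cyp2r1, which makes the first hydroxylation of vitamin D, was at most 1.52 CPM and was not called (-0.28 ± 0.36; adjusted p = 0.522). Cyp20a1, an enzyme with no known substrate, was at 18.1 ± 1.54 and 18.7 ± 2.08 CPM and was not called (0.04 ± 0.10; adjusted p = 0.726), although total-count scaling called it higher by 0.55. Cyp4x1 was at most 0.572 CPM, and Cyp2w1 had no counts.

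By subfamily, the summed level had the largest falls, as a ratio of group means, in 4B (from 3571 ± 478 to 146 ± 32.1 CPM; SD, n = 5), 7B, 2E (from 1801 ± 283 to 231 ± 90.2 CPM) and 4A (from 1096 ± 326 to 149 ± 72.0 CPM). The 2J genes in sum went from 2020 ± 201 to 367 ± 126 CPM and the 2D genes from 366 ± 95.2 to 110.1 ± 48.6 CPM, with no overlap of the groups in either. The 2C sum was 26.4 ± 5.19 against 13.5 ± 6.05 CPM, with treated replicate 1, at 23.9 CPM, among the controls. The sums of 2A and 4F overlapped between the groups, and in both of them members of opposite direction were added up. Sums were above the controls in every treated sample for 1B, 2S and 3A.

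**Figure D5:**
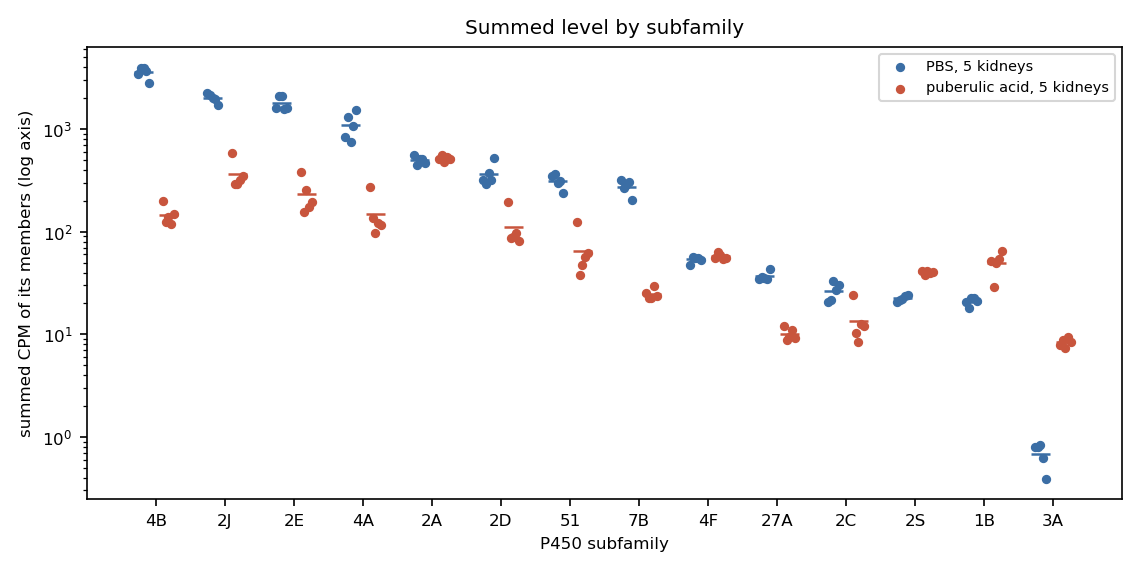
Summed CPM of the members (vertical axis, log scale) for 14 P450 subfamilies, ordered by control level. Each point is a sample, with PBS in blue and puberulic acid in red, and lines are group means (n = 5). The 2A and 4F sums overlap, 1B, 2S and 3A lie higher with puberulic acid, and the rest have a lower mean.

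Genes that P450 enzymes depend on mostly fell, where 31.1% of all tested genes were lower. Of 7 electron donors tested, 6 fell and 1 was not called, with a median log2 fold change of -1.16. Por, the reductase that serves most P450 enzymes, fell from 393 ± 38.2 to 133 ± 16.7 CPM, and Cyb5a, the main cytochrome b5, from 874 ± 108 to 181 ± 10.9 CPM. Fdx1 fell by 1.76 ± 0.11. Heme synthesis fell throughout: 9 of 9 genes were lower, with a median of -1.13. The group included Alas1, the rate-limiting enzyme (-0.97 ± 0.19), and Cpox (-1.50 ± 0.09). Alas2, known from red cell precursors, fell by 3.55 ± 0.52. Of 4 heme breakdown genes 2 rose and 2 fell, led by the stress-induced heme oxygenase Hmox1 (1.96 ± 0.25).

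Of 25 tested transcription factors and receptors known to control P450 genes, 15 were lower, 3 higher and 7 not called, with a median log2 fold change of -0.77. Over all tested genes 65.3% were called, 31.1% lower and 34.2% higher. Hnf4a, a factor of proximal tubule and liver genes, fell from 705 ± 44.4 to 170.1 ± 40.1 CPM. Nr1h4 (-1.93 ± 0.18) and Ppara (-1.90 ± 0.37) also fell. Those that rose were Cebpb (1.21 ± 0.29), Arnt (0.80 ± 0.09) and Ahr (0.65 ± 0.11).

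Targets of these receptors gave mixed counts, read beside the same shares over all tested genes. Of 9 tested Ppara targets, 7 fell, 1 rose and 1 was not called, with a median of -1.97. Ehhadh of peroxisomal oxidation fell by 3.71 ± 0.31 and Pdk4, the kinase that inhibits pyruvate dehydrogenase, rose by 2.10 ± 0.33. Of 5 tested Ahr targets, the P450 members included, Cyp1b1 rose, Ugt1a6a fell (-1.52 ± 0.22), and Cyp1a1, Tiparp and Nqo1 were not called. Control of the members by any of these receptors was not tested.

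Lists of enzymes that work beside the P450 family are read against the 65.3% of all tested genes that were called. No difference from that share was tested. Of 8 tested flavin monooxygenases and epoxide hydrolases, 6 fell and 2 rose, with a median log2 fold change of -2.01. Fmo1 (-2.54 ± 0.20) and Fmo2 (-3.15 ± 0.28) were among those that fell, as was Ephx2 (-1.91 ± 0.14), which hydrolyses the epoxides made from arachidonic acid. Ephx1, which hydrolyses epoxides of foreign compounds, rose from 52.1 ± 6.11 to 119.7 ± 5.35 CPM. Among 18 sterol synthesis genes, 7 fell, 2 rose and 9 were not called (median -0.18). Sqle (0.24 ± 0.17) was among those not called. Hmgcs1 fell by 1.95 ± 0.15 and Fdps rose by 0.93 ± 0.10. Of 11 tested retinoic acid genes 5 rose, 1 fell and 5 were not called. Aldh1a2, which makes retinoic acid, rose from 2.27 ± 0.96 to 66.5 ± 22.3 CPM, and the reductase Dhrs3 fell by 2.33 ± 0.19.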

How the data were processed

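Kidney poly(A) RNA was sequenced with a strand-specific kit, per the labels' protocols. The deposited table gives estimated counts by gene, which are not whole. Per the submitters' processing notes, which give no order or role, fastp 0.22.0, FastQC 0.12.1, MultiQC 1.28, Salmon 1.10.3, DESeq2 and the build GRCm39 were used. Symbols matched 51344 of the 55822 gene identifiers (99.3% of all counts). The columns of the 5 control and 5 puberulic acid samples were used. Another 10 columns, whose names do not show which supplement lot they hold, were used in no step.

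Counts were rounded, filtered with filterByExpr, scaled with TMM factors (0.827 to 0.848 in controls, 1.17 to 1.26 in treated libraries) and tested with the quasi-likelihood test of edgeR 4.0.16 (functions glmQLFit, not robust, and glmQLFTest), run under R 4.3.3 beside limma 3.58.1. Benjamini-Hochberg adjustment ran over the 16266 genes that passed. On 3 simulated tables with 200 changed genes and 15197 to 15277 tested, 95.0% of 2-fold and 100.0% of 4-fold changes were recovered, and 4.58% of calls were unchanged genes. How these shares hold where 10622 of 16266 genes are called, as in the kidney samples, was not tested. Standard errors are the log2 fold change over the square root of F. Subfamily sums were described and not tested.

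Exon lengths and 31-base words came from GENCODE M21 transcripts of GRCm38, and promoters from RefSeq (GRCm38.p6). The 2 genes set aside, some listed genes and 1 of the 7 motifs are not reported here. No coordinate was carried from the authors' build. A name was fixed for the 8 largest falls and rises with a group mean of at least 1 CPM, the 8 members with most counts, and members listed by role (1 of these names had no row). Members and lists were chosen with earlier results of these data known. Alternatives were RLE, upper-quartile and total-count scaling, testing unfiltered or at 1 CPM in 5 samples, DESeq2 1.42.0, a robust fit, a replicate block, leaving out each sample, and, for sums, leaving out Cyp4b1.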

Additional observations from a re-analysis of the deposited data

Results flagged for a closer look

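Within each group of 5, a sample was listed when its gap to the nearest other sample, divided by the group's range, was above 0.71. This happened in 17 of 86 groups searched (the 42 tested members and the summed level, in each group), where chance gives about 1 in 20, or 4.3. Puberulic acid replicate 1 accounted for 12 of the 17, as the highest of its group each time.

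The gap was 0.946 of the range for Cyp4a14 (23.5 CPM against 6.43 in the next sample), 0.892 for Cyp4a10 (135 against 49.1), 0.84 for Cyp4a12b (30.8 against 12), 0.813 for Cyp2j5 (437 against 241) and 0.817 for Cyp2j11 (47.8 against 23.6). For Cyp2j6 it was 0.796 (55.8 against 43.5) and for Cyp2d9 0.754 (111 against 66.2). It was 0.907 for Cyp2d26 (71.1 against 19.7), 0.74 for Cyp2c23 (23.0 against 11.9), 0.715 for Cyp51 (124 against 62.0) and 0.827 for Cyp26b1 (12.7 against 4.25). For the summed level of all members it was 0.881 (2554 against 1728 CPM).

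Control replicate 5 was the highest of its group for Cyp26b1 (0.911; 6.29 against 2.35 CPM), Cyp27a1 (0.78; 43.5 against 36.5 CPM) and Cyp2d26 (0.714; 287 against 153 CPM). Control replicate 1 was the lowest of its group for Cyp4f14 (0.77; 0.237 against 1.39 CPM). Puberulic acid replicate 4 was the lowest of its group for Cyp4f17 (0.883; 9.18 against 14.8 CPM), the value that makes the ranges of that gene overlap.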

How the results depend on the processing

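Of 750 values of the 42 tested members under the alternatives, 721 kept their side of the threshold with no called change of direction. In all, 29 genes did so under every alternative in which they were tested. Total-count scaling gave 19 members lower and 13 higher, ended the calls of Cyp2c23, Cyp2d22, Cyp2f2, Cyp2u1, Cyp46a1 and Cyp4f14, turned Cyp39a1 to a log2 fold change of 0.0942 and Cyp2j6 to 0.3973, and reduced the fall of the summed level from 5.50-fold to 3.87-fold. Leaving out Cyp4b1 also gave 3.87-fold. With no filter 83 members entered, 16 were called higher and 30 lower. The RLE and upper-quartile scalings, the robust fit and DESeq2 gave 9 higher and 26 lower. Leaving out 1 sample gave 9 to 11 members higher, 24 to 28 lower, 10104 to 11108 calls over all genes and a summed fall of 5.39-fold to 6.18-fold. Replicate numbers did not pair the samples: same-numbered deviations correlated at -0.036 on average (-0.172 to 0.039). With the replicate block 9 members were higher and 25 lower, 10325 genes were called, and the call of Cyp4f14 was lost. The cause of each of these shifts was not tested. Depth limits what can be said of the 57 members that were not tested.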
